A study of Mus musculus with 16 samples.

Results

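The genes described here encode the subunits of voltage-gated sodium channels, voltage-gated calcium channels and hyperpolarization-activated HCN channels. They were chosen by name alone. Every probe set with a single gene symbol was taken whose symbol is that of a sodium channel alpha or beta subunit (Scn), a calcium channel alpha1, alpha2delta or beta subunit (Cacna, Cacnb) or an HCN subunit. This gave 46 probe sets of 31 genes, out of 21780 probe sets of 19935 genes tested. Each gene was represented by its brightest probe set, taken over all arrays. The genes fell into 9 groups by role.

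RNA of the whole hippocampus of female mice was read on 16 Affymetrix Mouse Gene 1.0 ST arrays, whose probes lie along the whole transcript. The mice, 3 months old, were F2 animals of a C57BL/6J and DBA cross. They either carried 1 deficient copy of Crebbp (cbp+/-) or were their wild-type littermates. CBP, the product of Crebbp, acetylates histones and is recruited to genes by the transcription factor CREB. The mice lived in standard cages (SC) or for 2 weeks in enrichment (EE), a roomy box fitted with wheels, tubes and toys. The 4 groups were wild type in standard cages (WT_SC, 5 arrays), wild type in enrichment (WT_EE, 3 arrays), cbp+/- in standard cages (CBP_SC, 5 arrays) and cbp+/- in enrichment (CBP_EE, 3 arrays). Each array carried pooled RNA of 4 mice, so that 64 mice were used and the animals within a pool cannot be told apart. All groups share the mixed background, sex and age. The labels' design text names the genotypes and both housings, and the comparisons ask how each channel gene differs with housing within a genotype and with genotype within a housing.

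Sodium channels carry the rising phase of the action potential. Their pore is a single alpha subunit, joined by small beta subunits that shape gating and membrane placement, and in hippocampal neurons the alphas Scn1a, Scn2a, Scn3a and Scn8a predominate. Calcium channels are built around an alpha1 pore. The L-type pores link activity to transcription through calmodulin and CREB, the Cav2 pores gate transmitter release, and the T-type pores open at voltages near rest. The alpha2delta and beta subunits bring these pores to the membrane. HCN channels open on hyperpolarization and set the resting potential and dendritic integration of pyramidal cells.

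In wild-type mice, most genes of the main neuronal sodium and calcium channel pores had lower signals after enrichment. The sodium channel genes Scn8a (fold 0.753), Scn1a (fold 0.846) and Scn2b (fold 0.828), the L-type pore Cacna1c (fold 0.848) and the R-type pore Cacna1e (fold 0.793) were lower with an unadjusted p under 0.05. Scn10a (fold 1.17), Scn11a (fold 1.10), Cacna1s (fold 1.12), Cacna2d4 (fold 1.16) and Cacnb2 (fold 1.16) were higher at the same level. No channel gene passed an adjusted p of 0.05 in limma, in any of 7 comparisons, and neither did any of the 21780 probe sets (0% called). These differences are therefore given as values. Other settings changed that count: with arrays weighted by their own spread, 7 of 31 channel genes and 5254 of 21780 probe sets passed in wild type, and 3 of 31 and 1039 of 21780 in cbp+/- mice. With replicates 1 and 2 of each group alone, 10 of 31 and 6513 of 21780 passed in wild type. In wild type the channel genes' share was thus near that of all probe sets under both settings.

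In cbp+/- mice, 24 of 31 channel genes (77.4%) were lower after enrichment, against 45% of all probe sets. Their median difference was -0.093 log2, against 0.0096 over all probe sets. Markers of pyramidal and granule neurons moved with them, lower in 9 of 10 cases in wild type (median -0.128). In cbp+/- mice 8 of 10 of these markers were lower (median -0.106). Astrocyte markers were lower in 6 of 7 cases in each genotype (medians -0.067 and -0.069), and microglia markers in 3 of 7 and 2 of 7. The part of these markers in the channel values was not tested. In wild type 18 of 31 channel genes (58.1%) were lower, against 41.6% of all probe sets, with a median of -0.087 log2 against 0.029. Of the 31 genes, 10 had an unadjusted p under 0.05 in wild type, 5 lower and 5 higher. The background was 17.8% of all probe sets in both directions, 3.72% lower and 14.1% higher, so that the 5 higher genes (16.1%) were near the background. With quantile normalization 3 of 31 channel genes and 2010 of all probe sets had such a p, and the wild-type median was -0.041. Without the array WT_EE_1 there were 4 channel genes and 1979 probe sets in wild type, and without WT_SC_1 there were 6 and 3017. Among cbp+/- arrays 1 gene, Cacna1c, had such a p, against a background of 2.82%, and without the array CBP_SC_5 there were 8, and 1146 of all probe sets. Averaged over both genotypes, 21 of 31 were lower (67.7%, against 41.1%), and 12 of 31 had such a p, against 19.1%. With quantile normalization there were 4 of 31, and 2303 of all probe sets.

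**Figure D1:**
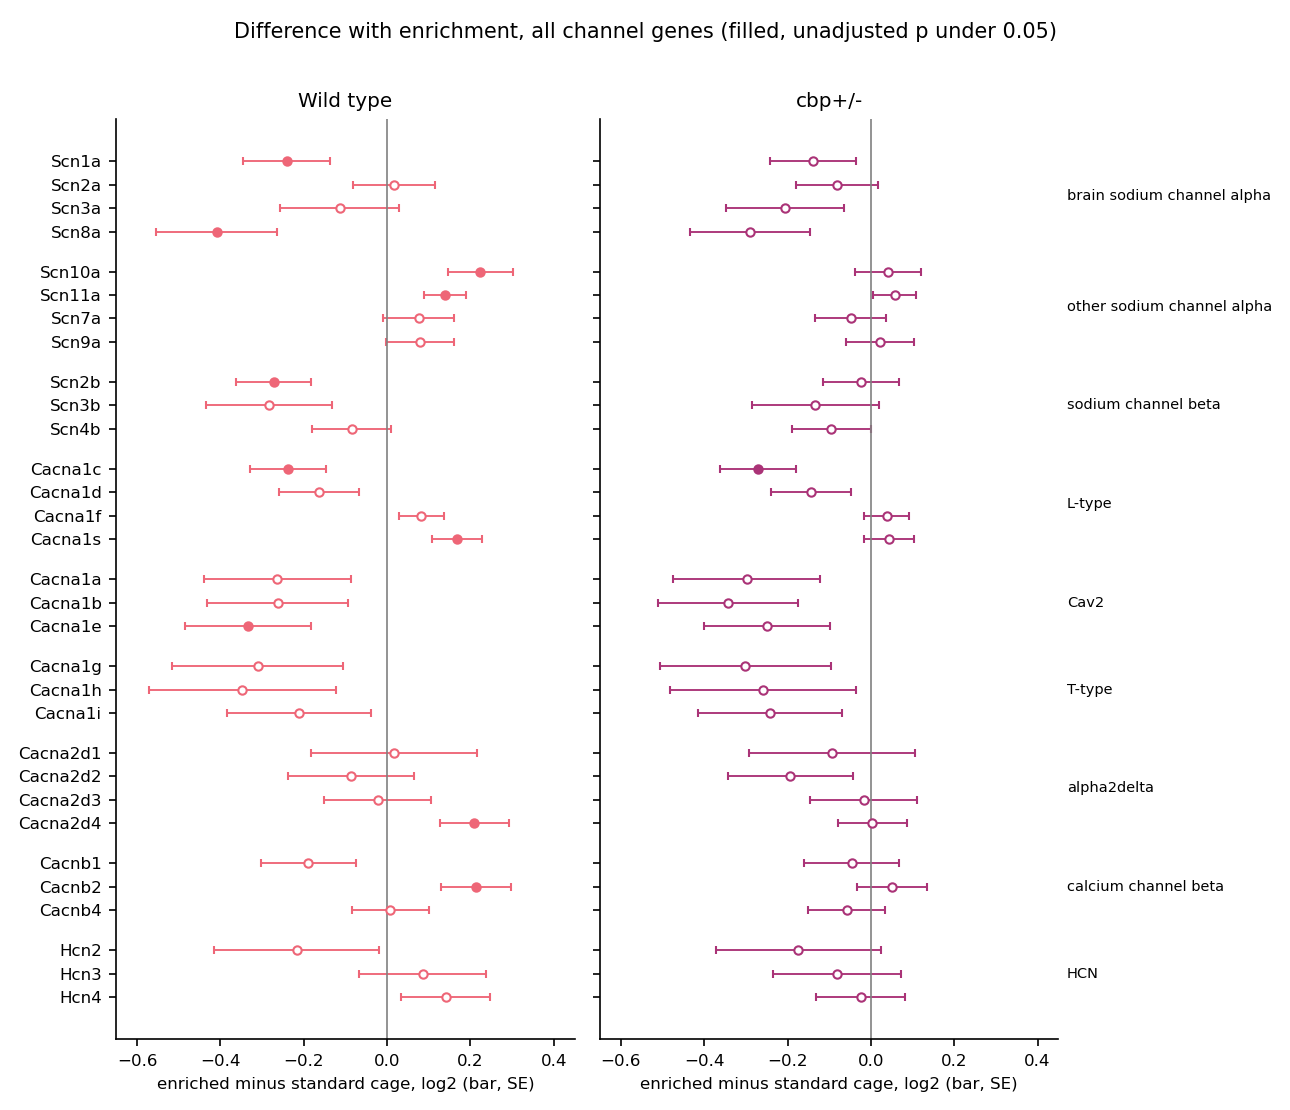
Difference in log2 signal between enriched and standard-cage arrays for each of the 31 channel genes, in wild type (left) and cbp+/- (right), grouped by role; points are differences of group means (3 enriched and 5 standard-cage arrays), bars the SE of the limma fit, and filled points have an unadjusted p under 0.05. The Cav2, T-type and sodium channel beta genes lie below 0 in both panels (Scn2b in cbp+/- mice is at 0.0041 with quantile normalization), and the genes above 0 in wild type include Scn10a at 0.22 and Cacnb2 at 0.21.

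The arrays differed little in overall level. Their medians ran from 76.7 to 85.46 intensity units, all pairs of arrays correlated at 0.966 or more on the log2 scale, and no pair was identical. The spread of signals was narrower on the enriched wild-type arrays, where the interquartile range was 2.22 to 2.38 log2, than on the wild-type standard-cage arrays, where it was 2.49 to 2.58. Crebbp was higher on the cbp+/- array in 5 of 5 same-numbered pairs in standard cages and 3 of 3 in enrichment, a pattern that 1.02% of all probe sets showed. Its difference from wild type was 0.14 (SE 0.0989, adjusted p = 1) in standard cages and 0.098 (SE 0.128, adjusted p = 0.976) in enrichment, and where its probes lie relative to the disrupted part of the gene was not analysed here, so that the genotype of each array rests on its label. The 10 markers of pyramidal and granule neurons all had a probe set, and their summed intensity was 7780 to 11900. No other tissue was read beside them, so these sums do not check hippocampal identity, which rests on the labels. Choroid plexus markers (8 of 8 found) summed to 7596 on CBP_SC_3, to 2366 on WT_SC_1 and to 521.8 to 1421 elsewhere. In whole tissue, fewer cells of a type and less RNA per cell cannot be told apart.

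CREB binds the cyclic AMP response element TGACGTCA or its core TGACG, so the RefSeq promoter windows (GRCm38.p6, 250 bases before to 50 after the start) were searched for both on both strands. Of the 31 genes, 24 had a window and 7 did not. The full element was in 0 of their 33 windows, against 1.79% of all 32851 windows. The core, which the full element also contains, was in 6 of 33 (18.2%), against 20.8% of all windows. It lay in windows of Cacna1b, Cacna1c, Cacna1i, Cacna2d1, Cacnb2 and Scn10a, so it was found both among genes with lower and among genes with higher signals. The 170 bases before the start are printed for the 5 genes that were lower and for 3 of those that were higher in wild-type enrichment with an unadjusted p under 0.05, in the same order as above and with the core in capitals. Where a gene has several windows, the most upstream start is shown. Their base composition varies: among the lower genes Scn8a has 25 CpG pairs and 77.1% G and C and Scn2b has 1 and 42.4%, and among the higher ones Cacna1s has 8 and 65.3%, Scn10a 7 and 54.7% and Scn11a 3 and 55.3%. The medians over the 170 bases before the start in all 32851 windows are 4 and 53.5%.
Scn8a: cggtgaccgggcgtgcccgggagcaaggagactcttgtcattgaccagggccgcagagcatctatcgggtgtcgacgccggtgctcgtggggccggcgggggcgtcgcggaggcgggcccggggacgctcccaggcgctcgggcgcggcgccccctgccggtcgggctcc
Scn1a: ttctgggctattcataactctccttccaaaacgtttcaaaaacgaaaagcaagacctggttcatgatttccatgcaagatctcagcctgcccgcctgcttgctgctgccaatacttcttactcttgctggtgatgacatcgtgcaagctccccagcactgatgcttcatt
Scn2b: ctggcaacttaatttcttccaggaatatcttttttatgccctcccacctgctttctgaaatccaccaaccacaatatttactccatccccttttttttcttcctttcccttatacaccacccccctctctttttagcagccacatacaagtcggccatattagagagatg
Cacna1c: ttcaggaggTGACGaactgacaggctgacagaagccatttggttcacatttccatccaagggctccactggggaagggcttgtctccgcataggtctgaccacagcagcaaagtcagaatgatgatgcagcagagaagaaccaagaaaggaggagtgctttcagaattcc
Cacna1e: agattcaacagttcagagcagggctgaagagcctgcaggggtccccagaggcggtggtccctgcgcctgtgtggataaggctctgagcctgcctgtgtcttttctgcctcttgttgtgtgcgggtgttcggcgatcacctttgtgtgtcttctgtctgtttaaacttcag
Scn10a: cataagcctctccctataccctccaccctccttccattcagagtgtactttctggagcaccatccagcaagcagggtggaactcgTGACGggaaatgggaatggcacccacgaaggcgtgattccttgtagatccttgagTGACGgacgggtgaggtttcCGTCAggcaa
Scn11a: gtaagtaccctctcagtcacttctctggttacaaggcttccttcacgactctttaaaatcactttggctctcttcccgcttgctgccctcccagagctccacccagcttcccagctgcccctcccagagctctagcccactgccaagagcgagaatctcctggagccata
Cacna1s: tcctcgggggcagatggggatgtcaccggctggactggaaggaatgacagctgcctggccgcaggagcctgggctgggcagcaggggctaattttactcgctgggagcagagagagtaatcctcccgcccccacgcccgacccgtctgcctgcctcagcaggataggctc
These stretches lie at chr15:100870475-100870644 (plus strand), chr2:66440838-66441007 (minus strand), chr9:45117706-45117875 (plus strand), chr6:119196410-119196579 (minus strand), chr1:154725921-154726090 (minus strand), chr9:119719033-119719202 (minus strand), chr9:119825457-119825626 (minus strand) and chr1:136052641-136052810 (plus strand), in that order. Cores are seen once in the Cacna1c stretch and 3 times in that of Scn10a, and the other 6 stretches hold none. The genes Scn10a and Scn11a, both on chromosome 9, share no core although both had higher signals. A match of letters is a description of the sequence and does not show that a factor binds there.

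Among the brain sodium channel alphas, Scn8a (Nav1.6, the main channel of the mature axon initial segment) had the most negative difference of any channel gene in wild type. Its log2 signal was 9.55, 9.53, 9.74, 10.02 and 9.50 on WT_SC_1 to WT_SC_5 and 9.20, 9.35 and 9.22 on WT_EE_1 to WT_EE_3. All 3 enriched arrays lay below all 5 standard-cage arrays, and WT_SC_4 was the highest. The means were 9.26 ± 0.081 and 9.67 ± 0.22 (SD, n = 3 and 5), a difference of -0.41 (SE 0.145, adjusted p = 0.188). Without the array WT_SC_4 it was -0.32. The cbp+/- signal of Scn8a was 9.45, 9.38, 9.83, 9.84 and 9.29 on CBP_SC_1 to CBP_SC_5 and 9.21, 9.12 and 9.47 on CBP_EE_1 to CBP_EE_3. There 2 of 3 enriched arrays were below all standard-cage arrays and CBP_EE_3 lay within their range, for a difference of -0.29 (SE 0.145, adjusted p = 0.999).

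Scn1a (Nav1.1, the main sodium channel of many inhibitory interneurons) measured 9.19, 9.03, 8.80, 8.86 and 8.69 on WT_SC_1 to WT_SC_5 and 8.58, 8.78 and 8.66 on WT_EE_1 to WT_EE_3. The difference was -0.24 (SE 0.104, adjusted p = 0.249), with 2 of 3 enriched arrays below all standard-cage arrays, and the first 2 standard-cage arrays were the highest. Its cbp+/- values were 8.99, 8.90, 8.90, 8.70 and 8.67 on CBP_SC_1 to CBP_SC_5 and 8.77, 8.58 and 8.73 on CBP_EE_1 to CBP_EE_3. The groups overlapped and the difference was -0.14 (SE 0.104, adjusted p = 0.999). Scn3a, the alpha subunit best known from the embryonic brain, differed by -0.11 (SE 0.142) in wild type and -0.21 (SE 0.142) in cbp+/- mice, with overlapping groups in both. The summed intensity of 10 interneuron markers was 6999 to 9251 in WT_SC (median 7546) and 6002 to 8335 in WT_EE (median 8082). The lowest value was that of WT_EE_3. The part of these markers in the Scn1a difference was not tested.

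Scn2a (Nav1.2, the alpha subunit of immature axons and of the proximal initial segment) was the one brain alpha whose brightest probe set was not lower in wild type. That probe set gave 10.88, 10.96, 11.16, 10.73 and 10.96 on WT_SC_1 to WT_SC_5 and 10.86, 10.78 and 11.23 on WT_EE_1 to WT_EE_3, a difference of 0.016 (SE 0.0989, adjusted p = 0.945). The array WT_EE_3 was the highest of all 8 and the other enriched arrays were among the lower ones. Signals in cbp+/- mice were 10.86, 10.86, 10.92, 10.74 and 10.85 on CBP_SC_1 to CBP_SC_5 and 10.79, 10.68 and 10.81 on CBP_EE_1 to CBP_EE_3, a difference of -0.082 (SE 0.0989). The gene has 14 single-symbol probe sets, and in wild type the difference of the brightest was the highest of the 14, while 12 of 14 were negative, from -0.48 to 0.016 with a median of -0.23 and 4 at an unadjusted p under 0.05. All 14 were negative in cbp+/- mice, from -0.35 to -0.0033 with a median of -0.21 and 3 at that level. The probe sets share their RNA and their arrays, so they are not replicates.

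Averaged over the 14 probe sets, Scn2a differed by -0.24 (SE 0.0872, adjusted p = 0.185) in wild type and by -0.18 (SE 0.0872) in cbp+/- mice. The sign in wild type thus depends on which probe sets are read. A further 3 probe sets carry several sodium channel symbols and were not assigned to a gene. The one shared by Scn9a and Scn3a averaged 9.92 in both WT_SC and WT_EE, 9.97 in CBP_SC and 9.80 in CBP_EE. The one shared by Scn3a and Scn1a averaged 8.53 in WT_SC and 8.28 in WT_EE, 8.47 in CBP_SC and 8.23 in CBP_EE. The one shared by Scn2a, Scn9a and Scn3a averaged 6.34 in WT_SC and 5.83 in WT_EE, and 6.31 in CBP_SC and 6.06 in CBP_EE. In cbp+/- mice all 3 enriched arrays were below all standard-cage arrays for this last one, and in wild type 2 of 3 were.

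**Figure D2:**
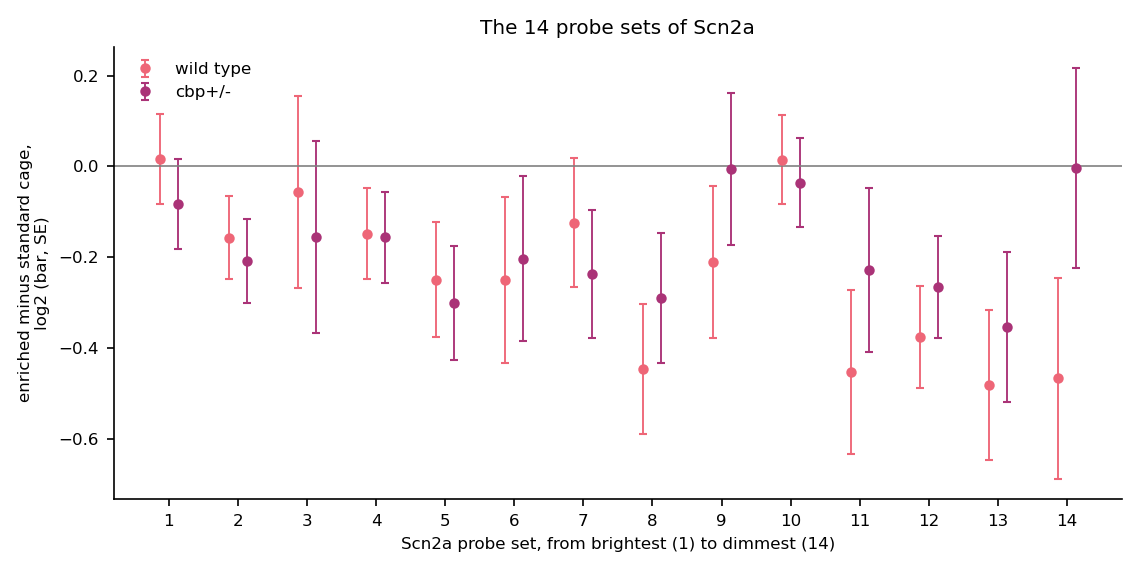
Difference in log2 signal between enriched and standard-cage arrays for the 14 probe sets of Scn2a, ordered from the brightest (1) to the dimmest (14), in wild type and cbp+/-; bars are the SE of the limma fit. In wild type the brightest probe set stands at 0.016 and 12 of 14 lie below 0, and in cbp+/- mice 14 of 14 do.

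The other sodium channel alphas are best known from sensory neurons (Scn9a, Scn10a, Scn11a) and from salt sensing cells and glia (Scn7a). All 4 were higher in wild-type enrichment, with a median of 0.11 and differences of 0.075 to 0.22, and with quantile normalization 2 of them, Scn7a and Scn9a, changed sign to -0.039 and -0.041. Scn10a measured 5.19, 5.28, 5.16, 5.30 and 5.22 on WT_SC_1 to WT_SC_5 and 5.67, 5.42 and 5.27 on WT_EE_1 to WT_EE_3. Of the enriched arrays, 2 of 3 exceeded all standard-cage arrays, and the difference was 0.22 (SE 0.0791, adjusted p = 0.185). Without WT_EE_1, the highest array, the difference was 0.12. On CBP_SC_1 to CBP_SC_5 Scn10a measured 5.35, 5.23, 5.28, 5.29 and 5.24, and on CBP_EE_1 to CBP_EE_3 5.30, 5.47 and 5.19, overlapping groups with a difference of 0.042 (SE 0.0791).

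For Scn11a the values were 5.15, 5.09, 5.04, 5.13 and 5.13 on WT_SC_1 to WT_SC_5 and 5.34, 5.22 and 5.17 on WT_EE_1 to WT_EE_3. All 3 enriched arrays lay above all standard-cage arrays, with a difference of 0.14 (SE 0.051, adjusted p = 0.196). For the cbp+/- arrays they were 5.15, 5.24, 5.05, 5.16 and 5.13 and 5.27, 5.16 and 5.18 in the same order, with overlap and a difference of 0.057 (SE 0.051). Scn9a gave 5.90, 5.59, 5.74, 5.54 and 5.60 on WT_SC_1 to WT_SC_5, 5.82, 5.78 and 5.67 on WT_EE_1 to WT_EE_3, 5.80, 5.85, 5.84, 5.66 and 5.64 on CBP_SC_1 to CBP_SC_5 and 5.85, 5.81 and 5.69 on CBP_EE_1 to CBP_EE_3. No group of Scn9a stood apart from another. Scn7a gave 5.75, 5.70, 5.43, 5.50 and 5.62 on WT_SC_1 to WT_SC_5, 5.50, 5.67 and 5.85 on WT_EE_1 to WT_EE_3, 5.55, 5.44, 5.62, 5.42 and 5.46 on CBP_SC_1 to CBP_SC_5 and 5.51, 5.38 and 5.45 on CBP_EE_1 to CBP_EE_3. The enriched cbp+/- arrays were among the lower ones, and their difference from wild type is given with the genotypes. All 4 genes lay in the 2 dimmest of 5 equal brightness classes of probe sets, where the median of all probe sets in wild-type enrichment was itself above 0, at 0.057 and 0.12.

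The sodium channel beta genes were lower after enrichment in 3 of 3 cases in wild type, with a median of -0.27, and in 3 of 3 in cbp+/- mice, with a median of -0.095. With quantile normalization Scn2b in cbp+/- mice was 0.0041, the one sign that changed among these. Scn2b (beta2, which is bound to the alpha subunit by a disulfide bridge) measured 10.26, 10.24, 10.32, 10.10 and 10.29 on WT_SC_1 to WT_SC_5 and 10.01, 10.07 and 9.84 on WT_EE_1 to WT_EE_3. All 3 enriched arrays were below all 5 others, with a difference of -0.27 (SE 0.0904, adjusted p = 0.167). With quantile normalization the value was -0.18, and without WT_EE_3 it was -0.21. The cbp+/- arrays gave 10.19, 10.15, 10.41, 10.02 and 10.33 on CBP_SC_1 to CBP_SC_5 and 10.09, 10.14 and 10.36 on CBP_EE_1 to CBP_EE_3. These groups overlapped throughout, with a difference of -0.023 (SE 0.0904). Scn3b differed by -0.28 (SE 0.152) in wild type and -0.13 (SE 0.152) in cbp+/- mice, and Scn4b by -0.085 (SE 0.0953) and -0.095 (SE 0.0953).

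Among the L-type calcium channel pores, Cacna1c (Cav1.2, the main L-type pore of hippocampal pyramidal cells) was the one channel gene whose enriched arrays lay below all standard-cage arrays in both genotypes. Its signal was 8.11, 8.15, 8.34, 8.32 and 8.07 on WT_SC_1 to WT_SC_5 and 7.95, 8.03 and 7.90 on WT_EE_1 to WT_EE_3, a difference of -0.24 (SE 0.091, adjusted p = 0.208). Its cbp+/- values were 8.05, 8.02, 8.34, 8.39 and 8.05 on CBP_SC_1 to CBP_SC_5 and 7.88, 7.88 and 7.93 on CBP_EE_1 to CBP_EE_3, a difference of -0.27 (SE 0.091, adjusted p = 0.999). The margin between groups was small: the lowest standard-cage arrays, WT_SC_5 and CBP_SC_2, were close above the highest enriched ones. Averaged over both genotypes the difference was -0.25 (SE 0.0644, adjusted p = 0.138). Groups did not overlap, on the lower side, for 2% of all probe sets in wild type and 1.25% in cbp+/- mice. Among channel genes this held for 4 in wild type (Cacna1c, Cacna1h, Scn2b and Scn8a) and for 1 in cbp+/- mice. On the higher side it held for 4 in wild type (Cacna1s, Cacna2d4, Cacnb2 and Scn11a), against 9.16% of all probe sets, and for 0 in cbp+/- mice, against 1.64%.

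Cacna1d (Cav1.3, the other L-type pore of neurons) differed by -0.16 (SE 0.096) in wild type and -0.14 (SE 0.096) in cbp+/- mice. The 2 L-type pores of other tissues were higher in both. Cacna1s, the pore of skeletal muscle, measured 5.53, 5.62, 5.73, 5.67 and 5.66 on WT_SC_1 to WT_SC_5 and 5.87, 5.83 and 5.74 on WT_EE_1 to WT_EE_3. The enriched arrays were all above the others, by 0.17 (SE 0.0601, adjusted p = 0.189), and by 0.045 with quantile normalization. Signals in cbp+/- mice were 5.75, 5.70, 5.56, 5.72 and 5.68 on CBP_SC_1 to CBP_SC_5 and 5.79, 5.77 and 5.61 on CBP_EE_1 to CBP_EE_3, with a mean 0.043 higher (SE 0.0601), or -0.002 with quantile normalization. The summed intensity of 5 skeletal muscle markers, none of them at 0, was 316.6 to 338 in WT_SC and 337.6 to 371 in WT_EE, and its part in the Cacna1s difference was not tested. Cacna1f, the retinal pore, differed by 0.082 (SE 0.054) in wild type, or -0.018 with quantile normalization.

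**Figure D3:**
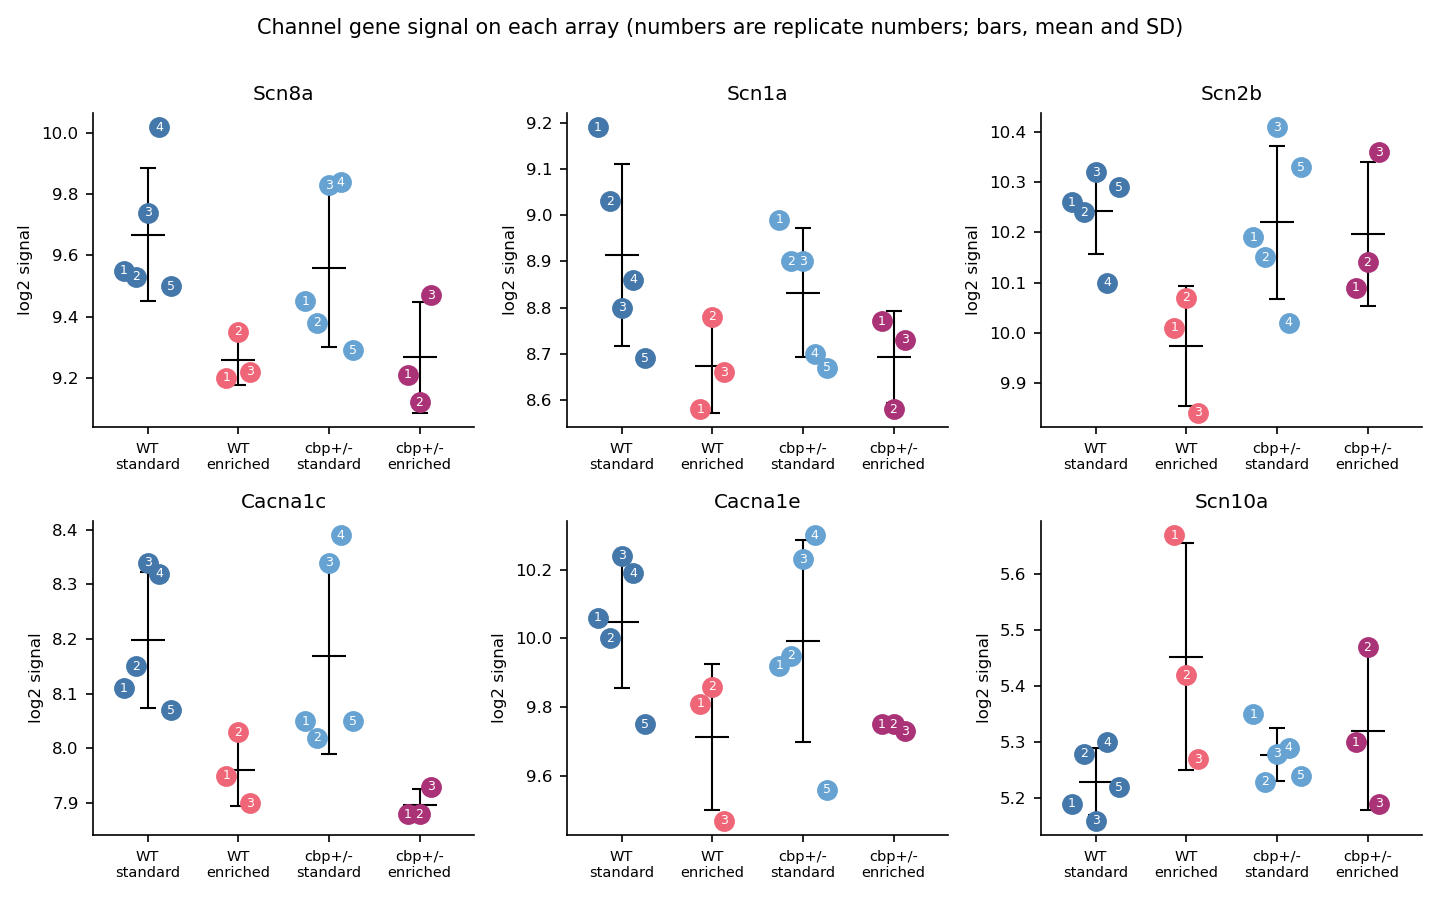
Log2 signal of 6 channel genes on each of the 16 arrays, by group (WT wild type, standard or enriched housing); each point is 1 array with its replicate number, and bars give the group mean and SD over 5 standard-cage or 3 enriched arrays. Scn8a, Scn2b and Cacna1c in wild type show enriched arrays below all standard-cage arrays, and Cacna1c does so in cbp+/- mice too; the vertical axes do not start at 0.

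The Cav2 pores, which supply the calcium for transmitter release, were lower after enrichment in 3 of 3 cases in each genotype, with medians of -0.26 in wild type and -0.30 in cbp+/- mice. Cacna1e (Cav2.3, the R-type pore, found in dendrites and terminals) measured 10.06, 10, 10.24, 10.19 and 9.75 on WT_SC_1 to WT_SC_5 and 9.81, 9.86 and 9.47 on WT_EE_1 to WT_EE_3. Of the enriched arrays only WT_EE_3 was below all the others, and the difference of -0.33 (SE 0.151, adjusted p = 0.263) was -0.21 without it. The cbp+/- arrays gave 9.92, 9.95, 10.23, 10.30 and 9.56 on CBP_SC_1 to CBP_SC_5 and 9.75, 9.75 and 9.73 on CBP_EE_1 to CBP_EE_3. The 3 enriched arrays were close together within the wide standard-cage range, and the difference was -0.25 (SE 0.151). Cacna1a (the P/Q-type pore) differed by -0.26 (SE 0.176) and -0.30 (SE 0.176), and Cacna1b (the N-type pore) by -0.26 (SE 0.168) and -0.34 (SE 0.168), in wild type and cbp+/- mice.

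The T-type pores were lower in 3 of 3 cases with enrichment in each genotype, and lower in 3 of 3 in cbp+/- against wild-type mice in each housing, except that Cacna1h in enrichment, at -0.010, was 0.025 once each array's median was subtracted. Cacna1h (Cav3.2) measured 7.67, 7.68, 8.43, 8.08 and 7.78 on WT_SC_1 to WT_SC_5 and 7.48, 7.62 and 7.64 on WT_EE_1 to WT_EE_3. The enriched arrays were all below the others, yet WT_SC_1 and WT_SC_2 were close above them, and the difference was -0.35 (SE 0.224, adjusted p = 0.43). Its cbp+/- values were 7.53, 7.53, 8.44, 8.21 and 7.42 on CBP_SC_1 to CBP_SC_5 and 7.61, 7.53 and 7.57 on CBP_EE_1 to CBP_EE_3. Here the enriched arrays lay inside the standard-cage range, which the arrays CBP_SC_3 and CBP_SC_4 stretched upward, for a difference of -0.26 (SE 0.224). Cacna1g (Cav3.1) differed by -0.31 (SE 0.206) and -0.30 (SE 0.206), and Cacna1i (Cav3.3) by -0.21 (SE 0.173) and -0.24 (SE 0.173).

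The alpha2delta genes encode extracellular subunits of calcium channels, and those of Cacna2d1 and Cacna2d2 also bind gabapentin. The neuronal ones, Cacna2d1, Cacna2d2 and Cacna2d3, had no unadjusted p under 0.05 between housings in limma. Cacna2d1 gave 10.82, 10.67, 10.26, 9.83 and 10.05 on WT_SC_1 to WT_SC_5 and 10.45, 10.30 and 10.28 on WT_EE_1 to WT_EE_3, a difference of 0.017 (SE 0.2). It gave 10.64, 10.51, 10.26, 9.91 and 10.14 on CBP_SC_1 to CBP_SC_5 and 10.18, 10.26 and 10.15 on CBP_EE_1 to CBP_EE_3, a difference of -0.093 (SE 0.2). Its standard-cage arrays 1 and 2 were the highest and arrays 4 and 5 the lowest in both genotypes. The enriched groups have no arrays 4 and 5, so this order could not be looked for there. Cacna2d4, known from the retina, measured 5.88, 5.99, 6.07, 5.95 and 5.99 on WT_SC_1 to WT_SC_5 and 6.28, 6.16 and 6.12 on WT_EE_1 to WT_EE_3. These groups did not overlap, with a difference of 0.21 (SE 0.0829, adjusted p = 0.219), or 0.11 with quantile normalization. On CBP_SC_1 to CBP_SC_5 it measured 6.12, 6.30, 5.89, 6.04 and 5.97 and on CBP_EE_1 to CBP_EE_3 6.13, 6.15 and 5.93, a difference of 0.0036 (SE 0.0829). Cacna2d2 differed by -0.087 (SE 0.151) and -0.19 (SE 0.151), and Cacna2d3 by -0.023 (SE 0.128) and -0.017 (SE 0.128). Between genotypes in enrichment Cacna2d2 was at -0.27 (SE 0.169), the most negative value of the 31 channel genes in that comparison.

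The calcium channel beta genes encode the cytoplasmic subunits that bring the pore to the membrane. Cacnb2 measured 5.60, 5.77, 5.70, 5.79 and 5.57 on WT_SC_1 to WT_SC_5 and 6.06, 5.81 and 5.82 on WT_EE_1 to WT_EE_3. All enriched arrays were above all the others, by 0.21 (SE 0.0841, adjusted p = 0.218), or 0.097 with quantile normalization. It measured 5.63, 5.85, 5.66, 5.53 and 5.66 on CBP_SC_1 to CBP_SC_5 and 5.83, 5.58 and 5.74 on CBP_EE_1 to CBP_EE_3, overlapping groups with a difference of 0.051 (SE 0.0841). Cacnb4, the beta subunit mutated in the lethargic mouse, gave 9.41, 9.34, 9.12, 9.26 and 9.06 on WT_SC_1 to WT_SC_5, 9.29, 9.24 and 9.20 on WT_EE_1 to WT_EE_3, 9.39, 9.33, 9.05, 9.19 and 9.03 on CBP_SC_1 to CBP_SC_5 and 9.21, 9.12 and 9.09 on CBP_EE_1 to CBP_EE_3. Its housing differences were 0.0071 (SE 0.0922) and -0.058 (SE 0.0922). Cacnb1 differed by -0.19 (SE 0.114) in wild type and -0.045 (SE 0.114) in cbp+/- mice.

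Of the HCN genes, Hcn2, a main HCN subunit of brain neurons, measured 8.06, 8.28, 8.91, 8.61 and 8.21 on WT_SC_1 to WT_SC_5 and 8.28, 8.27 and 8.05 on WT_EE_1 to WT_EE_3. The arrays WT_SC_3 and WT_SC_4 were far above the rest, and the difference was -0.22 (SE 0.198, adjusted p = 0.591). It measured 8.30, 8.23, 8.92, 8.57 and 8 on CBP_SC_1 to CBP_SC_5 and 8.24, 8.31 and 8.13 on CBP_EE_1 to CBP_EE_3, again with standard-cage arrays 3 and 4 highest, and a difference of -0.17 (SE 0.198). Without these 4 arrays the differences were 0.015 in wild type and 0.054 in cbp+/- mice, so their sign rests on them. Hcn3 differed by 0.085 (SE 0.153) and -0.081 (SE 0.153), and Hcn4, the pacemaker subunit of the heart, by 0.14 (SE 0.107) and -0.024 (SE 0.107).

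The same pair of standard-cage arrays stood out across the family. In both genotypes, standard-cage arrays 3 and 4 were above arrays 1, 2 and 5 for 12 of 31 channel genes (38.7%), against 9.52% of all probe sets, and below them for 0 of 31, against 7.56%. The 12 genes were Scn8a, Cacna1a, Cacna1b, Cacna1c, Cacna1e, Cacna1g, Cacna1h, Cacna1i, Cacna2d2, Cacnb1, Hcn2 and Hcn3, that is 3 of 3 Cav2 and 3 of 3 T-type pores. The summed intensity of the 10 pyramidal and granule markers moved with them. It was 11510 and 10660 on WT_SC_3 and WT_SC_4, and 11900 and 10340 on CBP_SC_3 and CBP_SC_4, against 7928 to 9243 on the other 6 standard-cage arrays and 7780 to 9145 on the 6 enriched ones. Other marker lists showed the same order. Astrocyte markers summed to 6165 and 5629 on WT_SC_3 and WT_SC_4, above wild-type standard-cage arrays 1, 2 and 5. On CBP_SC_3 and CBP_SC_4 they summed to 6179 and 5394, again above arrays 1, 2 and 5. Striatum markers did so too, at 1204 and 1154 and at 1237 and 1108. Meninges and fibroblast markers had the opposite order, and the remaining lists kept neither order in both genotypes. Whether any of these markers account for the channel signals was not tested. Choroid plexus markers were high on 1 of these 4 arrays, CBP_SC_3.

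Against the standard-cage arrays 1, 2 and 5 alone, 19 of 31 channel genes were lower after enrichment in wild type and 20 of 31 in cbp+/- mice, with medians of -0.043 and -0.038. The medians of all probe sets were then 0.025 and 0.010. Among the wild-type differences Scn8a was -0.27 (SE 0.0865), Scn2b -0.29 (SE 0.0836), Scn1a -0.30 (SE 0.124) and Cacna1c -0.15 (SE 0.0471). The T-type genes Cacna1g and Cacna1i were -0.10 (SE 0.13) and -0.051 (SE 0.0994) there. The Cav2 genes Cacna1a, Cacna1b and Cacna1e, all raised on standard-cage arrays 3 and 4, were also lower by less there. This held in both genotypes, so the size of their housing differences rests in part on those arrays. In cbp+/- mice Scn8a was -0.11 (SE 0.0865) and Cacna1c -0.14 (SE 0.0471), and Cacna1h was 0.075 (SE 0.0591). This choice of arrays was made after their values had been seen.

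**Figure D4:**
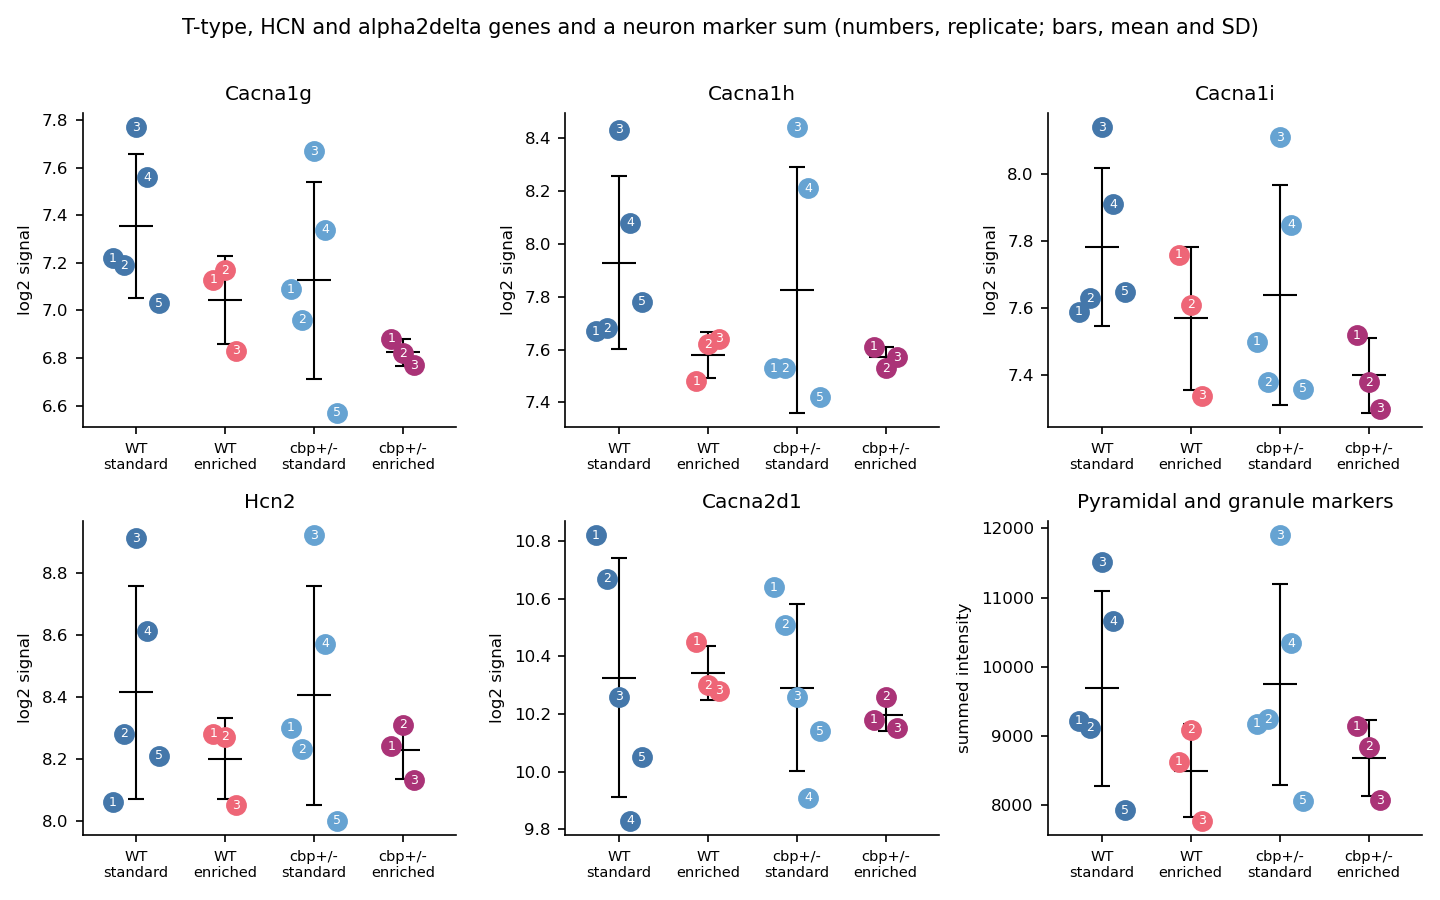
Log2 signal of the T-type genes Cacna1g, Cacna1h and Cacna1i, of Hcn2 and of Cacna2d1, and the summed intensity of 10 pyramidal and granule neuron markers, on each of the 16 arrays; points are arrays with their replicate numbers and bars the group mean and SD (5 standard-cage and 3 enriched arrays per genotype). Standard-cage arrays 3 and 4 are highest in the T-type and Hcn2 panels and in the marker sum, which reaches 11510 and 11900, while Cacna2d1 has arrays 1 and 2 highest; the vertical axes do not start at 0.

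The arrays fall into sets that cross the groups when clustered on all probe sets, so the housing differences were also read within sets. The division into 3 sets was added after a division into 4 had left WT_EE_3 alone. Within the largest set (10 arrays, replicates 1, 2 and 4 in standard cages and 1 and 2 in enrichment), 22 of 31 channel genes were lower in each genotype, with medians of -0.063 in wild type and -0.085 in cbp+/- mice. All probe sets had medians of 0.034 and 0.022 in this set. Within a smaller set (4 arrays, standard-cage replicate 5 and enriched replicate 3), 17 of 31 were lower in wild type and 11 of 31 in cbp+/- mice, with medians of -0.033 and 0.045. All probe sets had medians of 0.023 and -0.0078 in that smaller set. Scn8a was -0.42 and -0.27 in wild type and -0.39 and 0.18 in cbp+/- mice in the 2 sets, in that order. Cacna1c was -0.20 and -0.17 in wild type and -0.27 and -0.12 in cbp+/- mice. In the smaller cbp+/- set the Cav2 genes Cacna1a, Cacna1b and Cacna1e were at 0.090, 0.081 and 0.17, and the T-type genes Cacna1g, Cacna1h and Cacna1i at 0.20, 0.15 and -0.063, so that the lower values of these groups in cbp+/- mice do not hold there. The remaining set holds only standard-cage arrays and gives no housing value. The smaller set has 1 array per group, so these values carry no error of their own.

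Channel genes differed with brightness, and so did all probe sets. In wild-type enrichment the median difference of all probe sets was 0.057 and 0.12 in the 2 dimmest classes and -0.078 and -0.088 in the 2 brightest. The channel genes in brightness classes 4 and 5, the brightest, were lower in 7 of 7 and 10 of 13 cases, with medians of -0.21 and -0.24, where 70.6% and 71.7% of all probe sets were lower. In cbp+/- mice they were lower in 7 of 7 and 13 of 13 cases, with medians of -0.24 and -0.13, where 60.4% and 58% of all probe sets were. The dim channel genes, among them Scn10a, Cacna1s and Cacnb2, had a median of 0.14 in class 2, against 0.12 for all probe sets there. Quantile normalization brought the medians of all probe sets to between -0.0087 and 0.0082 in wild type, and those of the channel genes in the 2 brightest classes to -0.12 and -0.15 in wild type and -0.21 and -0.093 in cbp+/- mice. Of the 31 genes, 20 in wild type and 27 in cbp+/- mice were below the median of their own class. In wild type the channel genes of class 2 thus had a median near that of all probe sets there. Most of the bright channel genes lay below the medians of their classes. The exceptions were Cacna2d1, Cacna2d3, Cacnb4 and Scn2a in wild type and Cacna2d3 and Scn2b in cbp+/- mice.

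**Figure D5:**
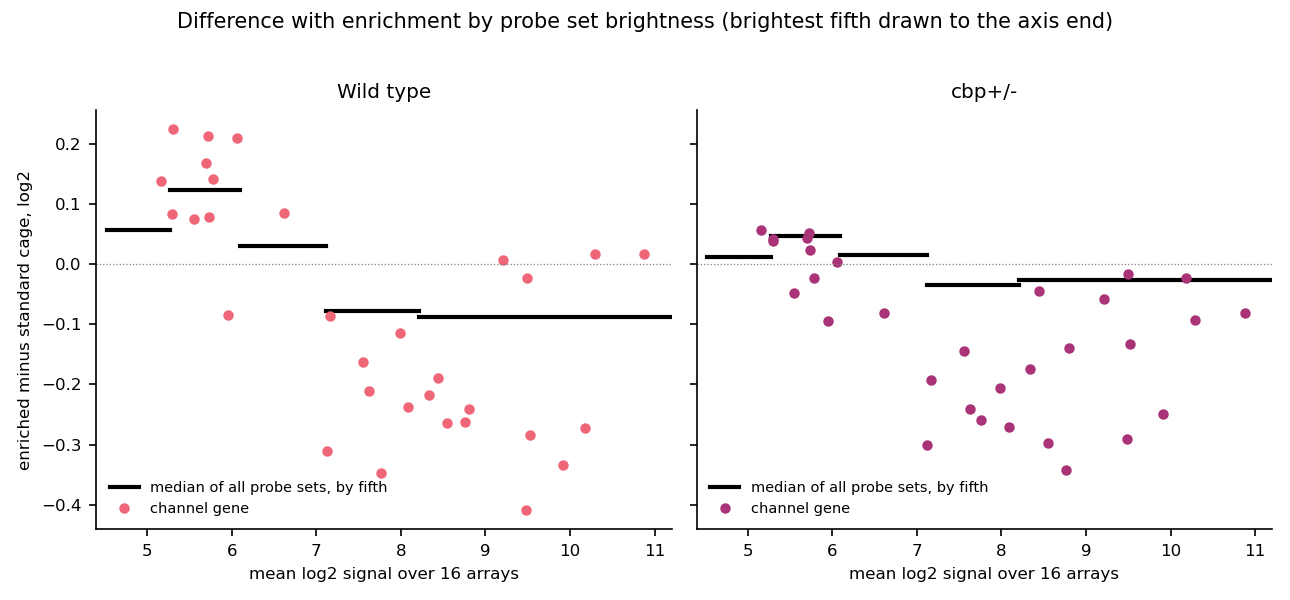
Difference in log2 signal between enriched and standard-cage arrays against the mean log2 signal over 16 arrays, for 31 channel genes (points), with the median of all probe sets in each of 5 brightness classes (black lines), in wild type (left) and cbp+/- (right). In wild type the black lines pass from 0.12 in class 2 to -0.088 in the brightest, and most bright channel genes lie below the lines in both panels.

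Without pairing of arrays, fewer channel genes had an unadjusted p under 0.05 between genotypes than between housings in wild type, where 10 of 31 did. Between housings in cbp+/- mice 1 of 31 did. These comparisons use the same arrays as the housing comparisons and are not independent of them. In standard cages 22 of 31 (71%) were lower in cbp+/- mice, against 46.3% of all probe sets, with a median of -0.030 against 0.0044. None of the 31 had an unadjusted p under 0.05, where 0.987% of all probe sets did. The median rests in part on 1 array: without CBP_SC_5 it was 0.0026, with 15 of 31 genes lower. In enrichment 23 of 31 (74.2%) were lower, against 58.3%, with a median of -0.066 against -0.02, and 2 of 31 had such a p, against 5.23%. Without CBP_EE_3 there were 0, and the median was -0.032. It was -0.031 with each array's median subtracted, against 0.015 for all probe sets. The 2 genes were Scn7a, at -0.23 (SE 0.095, adjusted p = 0.924), and Scn2b, at 0.23 (SE 0.101, adjusted p = 0.924). The Scn2b values given above did not overlap, with 3 of 3 cbp+/- arrays above all wild-type arrays. This was so for 3.53% of all probe sets, and the opposite, as for Cacna2d1, for 6.85%.

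Arrays with the same replicate number varied together across genotypes, so each cbp+/- array was also set against the wild-type array of the same housing and number. Cacna1g, Cacna1i and Cacnb4 were lower in 8 of 8 such pairs, as were 0.927% of all probe sets. No channel gene was higher in 8 of 8, against 1.02% of all probe sets. Scn2a and Scn4b were lower in 7 of 8 pairs, and Scn9a in 1 of 8. Averaged over housings the differences were -0.22 (SE 0.146, adjusted p = 0.999) for Cacna1g, -0.16 (SE 0.122, adjusted p = 0.999) for Cacna1i and -0.072 (SE 0.0652, adjusted p = 0.999) for Cacnb4. Scn7a, at -0.16 (SE 0.0601, adjusted p = 0.999), was the one channel gene with an unadjusted p under 0.05 in that comparison, against 3.91% of all probe sets. In that average 26 of 31 channel genes (83.9%) were lower in cbp+/- mice, against 56.7% of all probe sets. With the replicate number within each housing as a block, which uses this pairing, 0 passed the adjusted threshold. An unadjusted p under 0.05 was then found for 8 of 31 channel genes averaged over housings (2554 of all probe sets), 2 in standard cages (957), 8 in enrichment (2838) and 2 in the interaction (1441). The smallest was that of Cacna1g averaged over housings, at -0.22 (SE 0.0483, adjusted p = 0.218 in limma). For Scn2a the average over its probe sets was 0.0135, so that the lower value of its brightest probe set does not hold for the gene as a whole.

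The question of whether the response to enrichment differed between genotypes was tested as an interaction. None of the 31 genes passed, and none had an unadjusted p under 0.05 without the block, against 2.66% of all probe sets. The interaction was below 0 for 20 of 31, against 57.5% of all probe sets. The smallest p was that of Scn2b, with an interaction of 0.25 (SE 0.128, adjusted p = 1, 95% interval -0.025 to 0.52). Its wild-type and cbp+/- differences of -0.27 and -0.023 therefore cannot be called different. For Scn8a the interaction was 0.12 (95% interval -0.32 to 0.56) and for Cacna1c -0.034 (-0.31 to 0.24). These intervals include differences between genotypes as large as the housing differences themselves.

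Genes whose products bind or anchor these channels were read from lists of their own. Of 10 sodium channel partners found of 11 listed, 8 were lower in wild-type enrichment, with a median of -0.21, or -0.15 with quantile normalization. Lower values were found for 41.6% of all probe sets, and for 70.6% and 71.7% in the 2 brightest classes. The lists were not matched for brightness. Of the 10 partners, 4 were lower with an unadjusted p under 0.05, against 3.72% of all probe sets, while 0 passed the adjusted threshold. Oligodendrocyte markers were lower in 7 of 7 cases in wild type (median -0.192) and in 4 of 7 in cbp+/- mice (median -0.028), and their part in the partners' values was not tested. Among the 4 partners were Nfasc (neurofascin, an adhesion molecule of the initial segment and node) at -0.53 (SE 0.207, adjusted p = 0.211), Ank3 (ankyrin-G, which anchors sodium channels at the initial segment) at -0.32 (SE 0.111, adjusted p = 0.18) and Nedd4l (a ubiquitin ligase acting on sodium channels) at -0.25 (SE 0.0751, adjusted p = 0.146). All 3 enriched arrays lay below all standard-cage arrays for Nfasc and Nedd4l. In cbp+/- mice 8 of the 10 were lower too, against 45% of all probe sets, with a median of -0.11. There 0 had an unadjusted p under 0.05, against 2.82% of all probe sets. Calcium channel partners were lower in 10 of 13 cases in wild type with a median of -0.041, against 41.6% of all probe sets. In cbp+/- mice 6 of 13 were lower, against 45%.

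Of 87 potassium channel genes, which carry the opposing conductances, 39 were lower in wild-type enrichment, where 41.6% of all probe sets were. The median was 0.023, beside 0.029 for all probe sets. In cbp+/- mice 49 of the potassium channel genes were lower, where 45% of all probe sets were, with a median of -0.020, beside 0.0096. Their difference from the sodium and calcium channel genes was not tested, and the lists are not matched for brightness. In wild type 3 had an unadjusted p under 0.05 and were lower, Kcnd2 (Kv4.2, the A-type channel of dendrites) at -0.21 (SE 0.0767), Kcnn3 at -0.22 (SE 0.0848) and Kcnd3 at -0.20 (SE 0.0844), and 11 were higher, against 3.72% and 14.1% of all probe sets, so both counts were near the background. The gamma family, which includes the AMPA receptor regulators, had 4 of 7 lower in wild type, against 41.6% of all probe sets. Its member Cacng3 was at -0.29 (SE 0.127) and the muscle subunit Cacng1 at 0.27 (SE 0.0966). Of the 3 HCN partners found, 2 were lower in wild type and 3 in cbp+/- mice, where 41.6% and 45% of all probe sets were. None of these genes passed the adjusted threshold in any of the 7 comparisons.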

How the data were processed

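The authors' deposited values were intensities for 28815 probe sets on 16 arrays, on a linear scale between 22.12 and 16520.86. RMA is named in the submitters' processing notes and GeneSpring GX in the labels' protocols; no source used here states whether values were shifted to a baseline. Precision is limited by how many arrays each group has. Of 23385 probe sets in the platform's gene table, 21780 with a single symbol were tested and 1605 with several were left out.

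Log2 intensities of all 16 arrays were fitted with limma 3.58.1 (R 4.3.3) as 4 group means with eBayes (12 residual degrees of freedom), the Benjamini-Hochberg adjustment covered all 21780 probe sets, and the threshold on adjusted p was 0.05. The script was tested on simulated data: of 100 probe sets changed by 1 log2 and 100 changed by 2 log2 in wild-type enrichment, 95 and 100 were found, with 15 unchanged ones called. No size as small as the channel differences was simulated. The simulated noise was drawn independently for each probe set and array, without the deviations that arrays share in these data. Values on every array are given for genes with an unadjusted p under 0.05 between any 2 groups and for the brightest gene of each role. At most 3 genes per direction are named from each partner list. The members and lists were chosen with earlier results of these data known.

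Same-numbered arrays of both genotypes deviated together, with correlations of 0.544 to 0.767 in standard cages and 0.257 to 0.629 in enrichment, so genotypes were paired by number within a housing. The sample titles give only replicate numbers, and deviations of differently numbered arrays were not compared. Across housings the correlations were -0.394 to 0.365, a range that overlaps the one in enrichment. Alternatives covered scaling, pseudocount, brightness, array weights, array sets, the replicate block and leaving out each array.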

Additional observations from a re-analysis of the deposited data

Results flagged for a closer look

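Hcn4 was 5.95 log2 on WT_SC_4, above the other 4 wild-type standard-cage arrays, of which the nearest was 5.73. The gap was 0.718 of the group's range, where Dixon's 95% critical value for 5 arrays is 0.71. Scn3b was 10.06 on CBP_SC_3, with the nearest array at 9.55 and a gap of 0.786 of the range. Chance flags about 1 in 20 groups, or 3.1 of the 62 tested here.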

How the results depend on the processing

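In wild-type enrichment, where 0 probe sets and 0 channel genes passed, the number of probe sets passing was 13 with a pseudocount of 16, 1 with an array set block of 4 or of 3 sets, 6513 with replicates 1 and 2 only, 5254 with array weights, 96 with a trended and robust fit, 11 with the mean of a gene's probe sets, and 0 to 19 leaving out one array. Channel genes passing were 10 with replicates 1 and 2 only and 7 with array weights, and the median was -0.2167 in the upper 50% of brightness. In cbp+/- enrichment 1 probe set passed with the array set block, and 1039 with array weights, 3 of them channel genes. Array weights gave 2474 probe sets and 1 channel gene between genotypes in enrichment, 429 probe sets in the interaction, and 152 and 1 for genotype averaged over housings. For housing averaged over genotypes, probe sets passing were 326 with the replicate block, 1 with the array set block of 4 or of 3 sets, 5470 with replicates 1 and 2 only, 6167 with array weights, 5 with a trended and robust fit, and 0 to 230 leaving out one array; channel genes were 1 with the replicate block (Scn8a), 11 and 13 with replicates 1 and 2 only and with array weights. Its median was -0.0329 with standard-cage replicates 1, 2 and 5 only, chosen after seeing the data. The cause of these shifts was not tested.

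Leaving out one array, channel gene medians were -0.139 to -0.0709 in wild type, -0.1522 to -0.0637 in cbp+/- and -0.0692 to 0.0026 between genotypes in standard cages. With the replicate block within each housing, which pairs the genotypes by number, 0 probe sets passed and no call at the adjusted threshold changed. For the 13 differences with an unadjusted p under 0.05 between 2 groups, 358 of 373 values under alternatives had the same direction and side of the adjusted threshold, 15 newly passed it and 0 reversed. The 13 were picked for a small p, and leaving out an array of a group not compared cannot change a difference. The tally is therefore not a test of how firm these differences are. Smaller differences did change sign under some alternatives, as given with the genes.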
